A study of Saccharomyces cerevisiae with 9 samples.

Results

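The comparison described here is the loss of Pab1 in a *pbp1Δ* background, read across all mRNAs of budding yeast. Its members are the transcript entries that the deposited isoform table marks as mRNA, 6587 of 6952 entries, in 6 of the 9 RNA-Seq libraries of the series. The series holds 3 libraries each of WT, *pbp1Δ* and *pab1Δpbp1Δ* cells. All strains are W303 *MATa* cells with the mutant alleles of *URA3*, *LEU2*, *HIS3*, *TRP1*, *ADE2* and *CAN1* of that background. In *pbp1Δ* the *PBP1* coding sequence was replaced by *URA3*, and in *pab1Δpbp1Δ* the *PAB1* coding sequence was in addition replaced by kanMX, so that both groups compared lack Pbp1 and only one lacks Pab1. The 3 libraries of each mutant come from separate isolates, while the methods of the study call the WT libraries technical replicates. Cells were grown in rich medium with glucose (YEPD) at 30 °C with shaking and harvested in mid-log phase. The double mutant divides more slowly than *pbp1Δ*, so the loss of Pab1 and slow growth cannot be told apart in this design.

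Pab1 is the major cytoplasmic poly(A)-binding protein of yeast. It coats the poly(A) tails of mRNAs, binds the initiation factor eIF4G and acts in tail shortening and mRNA decay. It is essential, and deletion of *PBP1*, which encodes a Pab1-binding protein, lets cells live without it. Fast-growing yeast spends much of its mRNA on ribosomes and on making them, and keeps genes for stress, storage, poor carbon and nitrogen sources, and sporulation at low levels.

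The libraries held 75215943 to 100361368 expected counts in *pbp1Δ* and 77751826 to 89196615 in *pab1Δpbp1Δ*. In *pbp1Δ* replicates 1 to 3 *PAB1* had 140049, 142056 and 108388 counts and in the double mutant 50, 26 and 22, and *PBP1* had 66 to 143 counts in all 6, against at least 22789 in each WT library. The *pbp1Δ* libraries were closer to each other (Pearson's r of log2 CPM across entries 0.996 to 0.997) than the *pab1Δpbp1Δ* libraries were (0.976 to 0.991), and *pab1Δpbp1Δ* replicate 1 lay farthest from the other two (0.976 and 0.985). Levels are given as CPM, counts scaled to the size of the library after TMM normalization, with replicates in the order 1, 2, 3. No spike-in was mentioned, so a level is relative to the other mRNAs of its library. As in any bulk sample, fewer cells of a kind and less RNA per cell cannot be told apart. Percents of counts given below are not scaled by TMM, whose factors were 0.911 to 0.949 in *pbp1Δ* and 1.12 to 1.25 in *pab1Δpbp1Δ*. Set against *pbp1Δ*, the double mutant therefore comes out higher in percents of counts than in CPM.

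Of the 6587 mRNA entries 6230 had enough counts to be tested, and 2232 of these (35.8%) differed between the strains (edgeR's quasi-likelihood test, Benjamini-Hochberg adjusted p below 0.01). Among them 1158 were higher in *pab1Δpbp1Δ* (18.6% of those tested) and 1074 were lower (17.2%). This split depended on the scaling, and with upper-quartile scaling, which raised the median of all mRNA entries by 0.183 on the log2 scale to 0.214, 1631 were higher and 651 lower. In 65.7% of the tested entries every library of one strain lay above every library of the other. The rises were larger than the falls. The median log2 fold change of the entries that rose was 1.17 and that of the entries that fell -0.75. A change of at least 4-fold was seen in 249 entries that rose and in 14 that fell. The entries that rose took 3.31 to 3.58% of all counts in *pbp1Δ* and 7.56 to 9.21% in *pab1Δpbp1Δ*, and those that fell took 36.7 to 36.9% and 23.3 to 26.2%. Because the calls define these entries, the shares only describe them.

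The number of calls depended on single libraries. Without *pab1Δpbp1Δ* replicate 1 the number was 3762, and without replicates 2 and 3 it was 1913 and 1228. Without *pbp1Δ* replicate 1, 2 or 3 it was 964, 847 or 964. Of the 2232 calls 2229 stood without *pab1Δpbp1Δ* replicate 1 and 847 without *pbp1Δ* replicate 2. For the lists of genes below, the lowest and highest count over these 6 fits are therefore given as a range, and a gene called in fewer than 6 of them has that number beside its value. The other genes named as changed were called in each of the 6.

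To ask which functions changed, 1780 genes were sorted into 57 lists by known role, leaving aside translation and mRNA decay factors. The lists hold 752 of the 2232 entries called, and 1480 are in none of them. The median log2 fold change of all tested mRNA entries was 0.03. It was below 0 for 40 lists and above 0 for 17, and in 32 and 14 of these the median had the same sign in all 3 *pab1Δpbp1Δ* libraries. With upper-quartile scaling 13 of the medians below 0 came to lie above it, those of the alcohol and acetate, TCA cycle, respiratory chain, mitochondrial import, cytosolic chaperone, vacuolar hydrolase, proteasome, splicing, pyrimidine, ergosterol, ER folding, zinc and copper, and signalling lists. The lowest medians belonged to the a-specific mating genes, the aminoacyl-tRNA synthetases and the ribosome assembly factors. The highest belonged to the alpha-specific, meiotic, general stress and stationary phase genes.

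**Figure D1:**
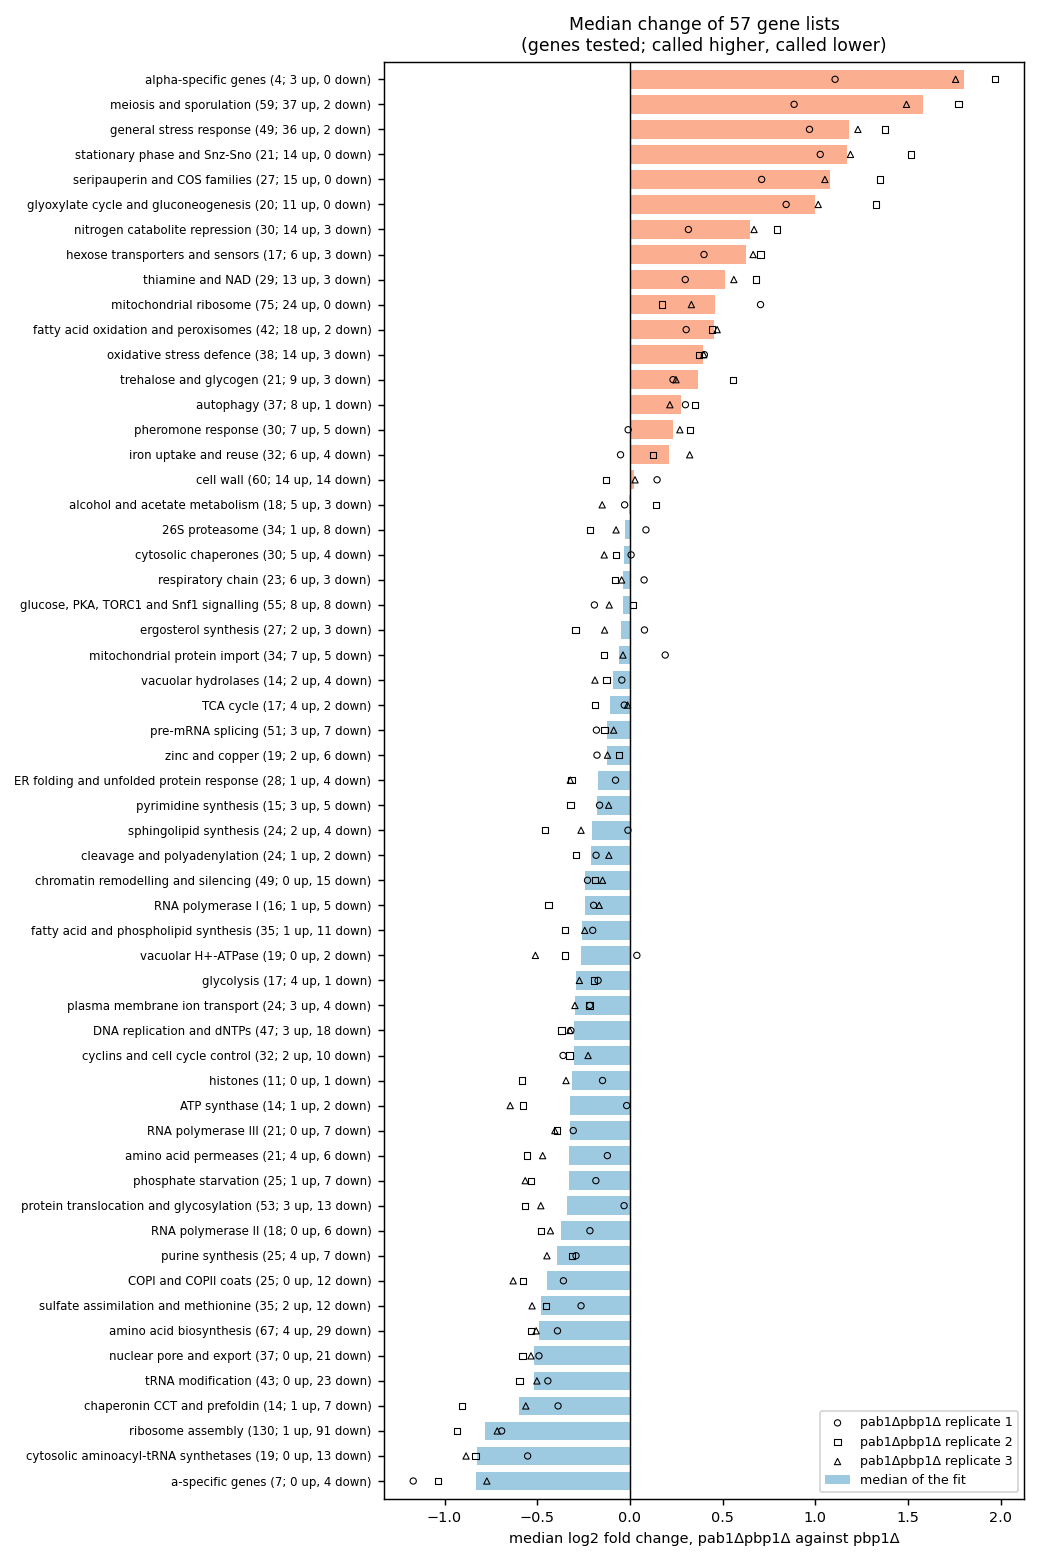
Median log2 fold change (*pab1Δpbp1Δ* over *pbp1Δ*, x axis) of each of the 57 lists, with the 3 *pab1Δpbp1Δ* libraries as separate points and the number of members called higher and lower beside each list. The lists run from a-specific genes at -0.83 to alpha-specific genes at 1.80.

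The largest rise was that of *HSP12*, a small membrane-associated heat shock protein. It had 3.29, 2.26 and 2.80 CPM in *pbp1Δ* and 120.1, 74.9 and 117 CPM in *pab1Δpbp1Δ*, a log2 fold change of 5.22 ± 0.24 (SE; edgeR adjusted p = 2.56e-05). The lowest double mutant library was far above the highest *pbp1Δ* library. *ADH2*, the glucose-repressed alcohol dehydrogenase that oxidizes ethanol, went from 1.38, 1.48 and 0.966 CPM to 27.6, 37.1 and 22.0 CPM, a log2 fold change of 4.50 ± 0.26. *YRO2*, a plasma membrane protein related to Hsp30, went from 9.51, 7.37 and 6.18 CPM to 120.1, 122 and 142 CPM (4.06 ± 0.18). For both genes the strains were well apart and replicates of a strain were close.

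The other genes among the 20 largest rises belonged to several programmes. *SPG4* (4.16) is a stationary phase gene, *POX1* (3.77) encodes the acyl-CoA oxidase of fatty acid β-oxidation, *THI5* (3.66) acts in thiamine synthesis, *REC8* (3.54) encodes the meiotic cohesin subunit, *PCH2* (3.58, 2.99 per locus) a meiotic checkpoint ATPase and *PHO92* (4.08) a YTH-domain reader of methylated mRNA that acts in meiosis. *SRT1* (3.50) encodes a cis-prenyltransferase used in spore wall formation, and *PAU2* (3.53) a seripauperin. Of the 20, 15 were under 1 CPM in *pbp1Δ* and the highest reached 7.69 CPM there. In 18 of the 20 the call held in every leave-one-out fit, and the exceptions were *COS4* (3 of 6) and *GAT3* (4 of 6), each at most 0.253 CPM in *pbp1Δ*.

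Apart from *PAB1*, the 20 largest falls began with the spliced entry of *HAC1*, the transcription factor of the unfolded protein response. It had 1.44, 1.297 and 1.33 CPM in *pbp1Δ* and 0.0401, 0.00 and 0.0616 CPM in *pab1Δpbp1Δ*, so its fitted value (-5.26 ± 0.58) rests on very few counts in the double mutant. In the table that joins the spliced and unspliced entries of a locus *HAC1* was not called (-0.47). *HO*, the endonuclease of mating-type switching, fell from 47.0, 53.0 and 50.9 CPM to 3.50, 7.54 and 6.26 CPM (-3.12 ± 0.26, edgeR adjusted p = 0.000161). *HXT2*, a high-affinity glucose transporter, fell from 340.1, 323 and 293 CPM to 69.9, 52.2 and 42.5 CPM (-2.53 ± 0.19). In each case the groups were far apart.

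Of the 20 largest falls 7 were ribosomal protein genes, all but *RPL8A* from the copy of a duplicated pair that carries the letter B. The spliced entry of *RPS22B* fell from 245, 223 and 236 CPM to 9.24, 9.76 and 18.8 CPM (-4.22 ± 0.28), and the spliced entry of *RPL18B* from 298, 287 and 296 CPM to 56.5, 31.0 and 32.9 CPM (-2.87 ± 0.23). In the table per locus, which joins spliced and unspliced entries, the falls were smaller, -3.15 for *RPS22B*, -1.90 for *RPL18B* and -1.61 for *RPS14B*. *RPL8A* (-2.23), *RPL9B* (-2.28), *RPS14B* (-2.03) and *RPS28B* (-1.82) followed, and *RPL7B* (-1.85) was called in 1 of 6 leave-one-out fits only. Reads of duplicated ribosomal protein genes can be split between the copies by the authors' counting. The rest included *PIR1*, a cell wall protein (-1.99), *PLB2*, a phospholipase B (-1.99), *OAC1*, the mitochondrial oxaloacetate carrier (-1.98), *FAR1* (-1.94) and *ARO10*, a decarboxylase of aromatic amino acid breakdown (-2.63, called in 4 of 6 fits). In contrast to the rises, 15 of the 20 were over 100 CPM in *pbp1Δ*.

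**Figure D2:**
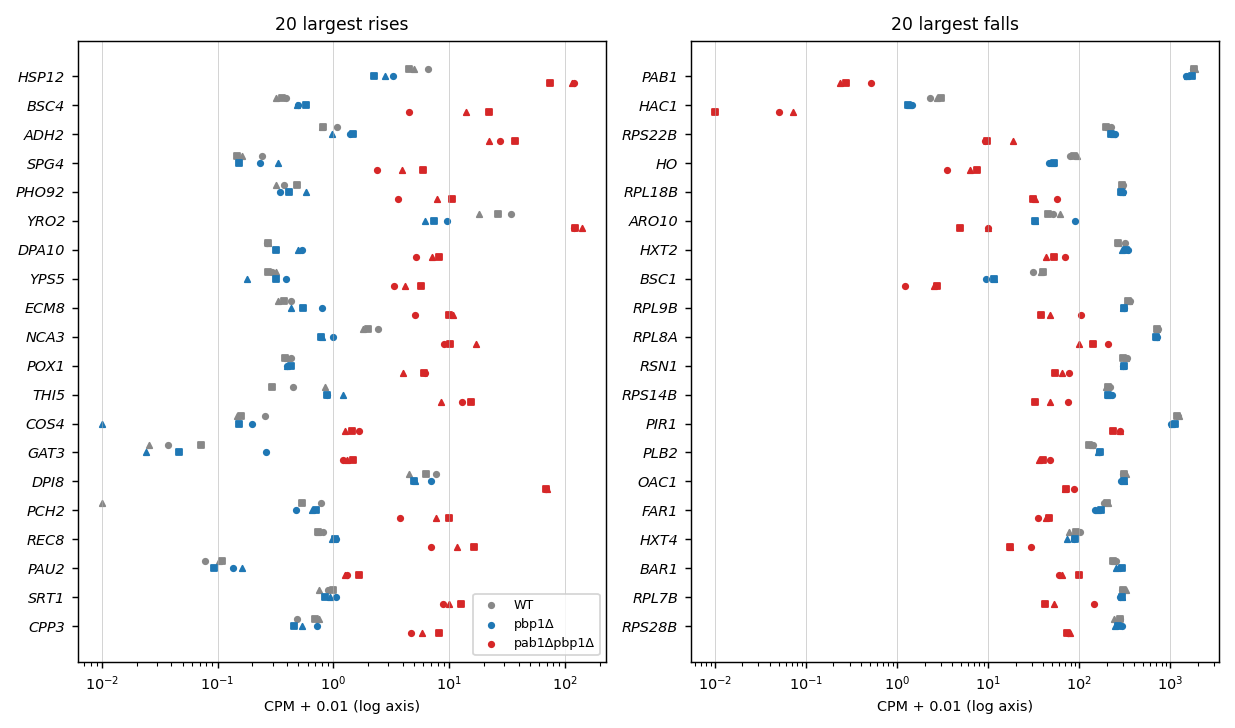
CPM in each library (log axis) of the 20 largest rises and 20 largest falls by the naming rule, with *pbp1Δ* and *pab1Δpbp1Δ* libraries as separate points. The rises start at 7.69 CPM or less in *pbp1Δ*, and 15 of the falls start above 100 CPM.

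This contrast between rises and falls held across all mRNAs. When the tested entries were split into quintiles by their FPKM in WT, a level per transcript length from libraries that the comparison does not use, 44.1% of the lowest quintile rose and 1.12% fell. In the highest quintile 4.90% rose and 39.5% fell. The quintiles between gave 23.0%, 11.6% and 9.31% higher and 4.01%, 14.3% and 27.3% lower. The median log2 fold change went from 1.01 in the lowest quintile to -0.46 in the highest. An entry could pass the count filter on the libraries of either strain alone, and an entry near 0 in *pbp1Δ* has little room to fall. How far this shapes the shares of the lowest quintile was not tested. With at least 10 counts required in every library, 1128 entries in all were higher and 1017 lower. Short genes rose more often than long ones, with 28.1% higher and 11.9% lower in the quintile with the shortest coding length and 9.78% higher and 27.6% lower in the quintile with the longest. Beside the counts of each list below, the quintile share is the percent of tested entries that moved the same way in the quintile that holds the list's median WT level, and a count near it is no result about the list. The 44.1% of the lowest quintile includes entries for which RefSeq has no gene. Entries with a RefSeq gene, as all list members are, rose in 51.9% there.

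The machinery of ribosome production fell together. Of 130 tested ribosome assembly factors, the nucleolar and nuclear proteins that cut, modify and fold pre-rRNA into subunits, 91 fell and 1 rose (*NOP6*, 0.56, 3 of 6 fits), with a median log2 fold change of -0.78 (library medians -0.69, -0.93 and -0.72). Between 61 and 115 fell in the leave-one-out fits, and the share that fell was 70.0% against a quintile share of 27.3%. *NOP7*, a 60S assembly factor, had 302.7, 362 and 355 CPM in *pbp1Δ* and 130.4, 109 and 122 CPM in *pab1Δpbp1Δ* (-1.49 ± 0.12, edgeR adjusted p = 0.000147). *LSG1*, a GTPase of late 60S maturation, had 102, 124 and 112 CPM and 41.4, 40.5 and 48.2 CPM (-1.37 ± 0.12). *UTP4*, a component of the early small subunit processome, had 187, 224 and 213 CPM and 101, 87.0 and 101 CPM (-1.11 ± 0.11). The strains did not overlap in any of these genes. *NOP1*, the fibrillarin that methylates rRNA, had 599.5, 639 and 639.5 CPM and 395, 202 and 236 CPM (-1.17 ± 0.24), with replicate 1 of the double mutant nearest to *pbp1Δ*, and was called in 2 of 6 fits.

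Many ribosome assembly genes carry 2 promoter elements known as PAC and RRPE. The stretches shown are the parts of the *NOP7* and *NOP1* promoters that hold both, read from the RefSeq R64 genome on the coding strand, with matches to GATGAG (PAC, which reads CTCATC on the other strand) and AAAATTTT (RRPE, the same on both strands) in capitals.
NOP7, chrVII:695257-695336, plus strand, 160 to 81 bases before the start codon: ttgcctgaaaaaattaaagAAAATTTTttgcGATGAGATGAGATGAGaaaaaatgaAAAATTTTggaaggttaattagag
NOP1, chrIV:427124-427183, plus strand, 240 to 181 bases before the start codon: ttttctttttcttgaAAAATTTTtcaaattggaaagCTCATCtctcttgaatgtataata
*NOP7* holds 3 overlapping PAC matches and 2 RRPE matches, and *NOP1* holds 1 of each.

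These letters were searched on both strands in the 300 bases before the start codon of 5777 tested genes with such a window. PAC occurred in 18.6% of all windows, in 27.1% of the windows of genes that fell and in 89.2% of those of the ribosome assembly list. RRPE occurred in 9.64%, 19.9% and 76.9%. The share of genes that fell was 16.5% with no PAC match, 23.3% with 1, 41.3% with 2 and 66.7% with 3 or more. The ribosome assembly list held 54 of the 173 windows with 2 or more PAC matches. Both elements were present in 266 windows, of which 48.9% belonged to genes that fell. Without the ribosome assembly list 176 windows with both remained, and 38.1% of their genes fell, against 15.7% with neither element. Outside that list 782 windows held PAC without RRPE, and 18.0% of their genes fell and 20.1% rose, against 18.9% rising with neither. With RRPE and no PAC 26.3% of 281 fell. A match is a string of letters and does not show that a factor binds there.

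Genes for tRNA synthetases, tRNA modification and nuclear export also held falls above the share of their level, while those of RNA polymerases I and II were near or below it. The largest subunits of RNA polymerases I and III, which make rRNA and tRNA, fell, *RPA190* from 1053, 1351 and 1227 CPM to 519, 522 and 473 CPM (-1.26 ± 0.14) and *RPO31* from 334, 418 and 369 CPM to 197, 206 and 179 CPM (-0.94 ± 0.12). Of the RNA polymerase I list 5 of 16 fell (31.2%, median -0.24, 2 to 7 in the leave-one-out fits, quintile share 27.3%) and 1 rose, the core factor gene *RRN7* (1.12, called in 2 of 6 fits). Of the RNA polymerase III list 7 of 21 fell and none rose (33.3%, median -0.33, 1 to 11 falling, quintile share 14.3%). Of the RNA polymerase II list 6 of 18 fell and none rose (33.3%, median -0.37), below the quintile share of 39.5%. The number that fell was 0 without *pbp1Δ* replicate 1, 2 or 3, 1 without *pab1Δpbp1Δ* replicate 3, 13 without its replicate 1, and 1 with upper-quartile scaling. Of the 19 cytosolic aminoacyl-tRNA synthetase genes 13 fell and none rose (68.4%, median -0.82, 6 to 19 falling, quintile share 39.5%). The leucyl-tRNA synthetase gene *CDC60* went from 1262, 1643 and 1398 CPM to 723, 569 and 459 CPM (-1.29 ± 0.20) and the phenylalanyl subunit *FRS2* from 482, 563 and 514 CPM to 281, 207 and 217 CPM (-1.14 ± 0.15). Both were below every *pbp1Δ* library in every double mutant library. Of 43 tRNA modification genes 23 fell (53.5%, median -0.52, 15 to 25, quintile share 27.3%), the tRNA methyltransferase gene *NCL1* the most (-1.17). Of 37 genes for nuclear pores and mRNA export 21 fell and none rose (56.8%, median -0.52, 7 to 27, quintile share 27.3%).

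Genes for mRNA processing in the nucleus had calls near or below the share of their level. Of 51 splicing factor genes 7 fell and 3 rose (13.7% falling, median -0.12, 2 to 14 falling and 0 to 9 rising, quintile share falling 14.3%), with the helicase gene *PRP43*, which also acts in ribosome assembly, at -1.04 and the U1 component gene *LUC7* at 1.50 (3 of 6 fits). Of 24 cleavage and polyadenylation genes 2 fell and 1 rose (-0.21, 0 to 7 falling, quintile share 14.3%). Of 49 genes for chromatin remodelling and silencing 15 fell and none rose (30.6%, median -0.24, 4 to 22, quintile share 14.3%). *SPT6*, a histone chaperone of transcription elongation, had 591, 709.5 and 668 CPM in *pbp1Δ* and 359.9, 326 and 255 CPM in *pab1Δpbp1Δ* (-1.06 ± 0.16). *SIR2*, the silencing deacetylase, had 62.5, 63.4 and 64.1 CPM and 34.3, 31.6 and 31.9 CPM (-0.95 ± 0.09), a narrow spread in both strains.

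Genes for protein folding and breakdown moved in both directions. Of the 14 genes of the chaperonin CCT, which folds actin and tubulin, and its partner prefoldin, 7 fell and 1 rose (median -0.60, 3 to 8 falling, quintile share 39.5%). All 7 were CCT subunits, such as *CCT8* (-0.92), and the one that rose was a prefoldin subunit. Among 30 cytosolic chaperones 4 fell and 5 rose (median -0.03, 2 to 10 falling and 3 to 9 rising, against quintile shares of 39.5% and 4.90%). The Hsp40 gene *SIS1* fell from 266, 272 and 255 CPM to 125, 123 and 124 CPM (-1.09 ± 0.09), while the small heat shock protein gene *HSP42* rose from 43.7, 41.2 and 37.0 CPM to 111, 111 and 113 CPM (1.47 ± 0.10) and *HSP26* from 6.81, 6.58 and 6.91 CPM to 17.5, 29.7 and 24.7 CPM (1.83 ± 0.20). Of 34 proteasome genes 8 fell and 1 rose (23.5% falling, median -0.03, 0 to 12 falling, quintile share 39.5%), and without *pbp1Δ* replicate 2 none was called.

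In amino acid metabolism the calls lay on both sides. Of 67 amino acid biosynthesis genes 29 fell and 4 rose (median -0.49, 14 to 42 falling), and the 43.3% that fell were near the quintile share of 39.5%. *LYS20*, a homocitrate synthase at the start of lysine synthesis, had 114, 117 and 112 CPM in *pbp1Δ* and 31.0, 39.1 and 52.1 CPM in *pab1Δpbp1Δ* (-1.48 ± 0.18). *ASN1*, an asparagine synthetase, had 1358, 1583 and 1498 CPM and 629.6, 557 and 552 CPM (-1.35 ± 0.13). *SER3*, a phosphoglycerate dehydrogenase of serine synthesis, went the other way, from 57.7, 61.2 and 59.1 CPM to 196, 430.0 and 203 CPM (2.23 ± 0.30), with replicate 2 the highest. The Gcn4 site TGACTC, which reads GAGTCA on the other strand, was found in 61.2% of the windows of the list and in 7.93% of all windows, in 7.79% of those of genes that fell and in 9.01% of those of genes that rose.

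Among 35 genes for sulfate assimilation and methionine 12 fell and 2 rose (34.3% falling, median -0.48, 3 to 19 falling, quintile share 27.3%). The homoserine acetyltransferase gene *MET2* fell from 27.4, 28.3 and 26.1 CPM to 9.29, 11.5 and 8.71 CPM (-1.46 ± 0.14). Of 21 amino acid permease genes 6 fell and 4 rose (-0.33, 3 to 11 falling and 3 to 5 rising, quintile shares 27.3% and 9.31%), the lysine permease gene *LYP1* (-0.87) and the basic amino acid transporter gene *ALP1* (2.27) in opposite directions. Of 30 genes under nitrogen catabolite repression, which are kept low on good nitrogen sources, 14 rose and 3 fell (46.7% rising, median 0.65, quintile share 23.0%). Only 2, 4 and 4 rose without *pbp1Δ* replicate 1, 2 or 3, and 19, 10 and 7 without *pab1Δpbp1Δ* replicate 1, 2 or 3. *DAL80*, a GATA repressor of that group, had 7.87, 9.40 and 7.91 CPM in *pbp1Δ* and 19.4, 32.5 and 20.03 CPM in *pab1Δpbp1Δ* (1.52 ± 0.22, called in 5 of 6 fits). *GAP1*, the general amino acid permease, was not called (-0.74, edgeR adjusted p = 0.0423), nor was the ammonium transporter gene *MEP2* (-0.35, edgeR adjusted p = 0.374).

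Nucleotide synthesis showed a few large shifts. Of 25 purine genes 7 fell and 4 rose (28.0% falling, median -0.39, 5 to 12 falling and 1 to 4 rising, quintile shares 39.5% and 4.90%). *ADE17*, one of a pair of isozymes for the last steps to IMP, rose from 30.8, 32.5 and 33.8 CPM to 142, 182 and 173 CPM (2.37 ± 0.12, edgeR adjusted p = 3.12e-05), while its partner *ADE16* fell (-0.81). *AAH1*, adenine deaminase, fell from 138, 146 and 149 CPM to 45.2, 45.7 and 62.0 CPM (-1.49 ± 0.14). All of these strains carry a mutant allele of *ADE2*, which blocks an earlier step of the same pathway. Of 15 pyrimidine genes 5 fell and 3 rose (-0.18, 3 to 7 falling and 0 to 4 rising, quintile shares 27.3% and 9.31%), and the CTP synthase gene *URA7* changed most (-1.22).

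In carbon metabolism, genes for the use of poor carbon sources were among those that rose. Of 20 genes for the glyoxylate cycle and gluconeogenesis 11 rose and none fell (55.0%, median 1.00, 8 to 14 rising, quintile share 44.1%). The share that rose was near the 51.9% of entries with a RefSeq gene in that quintile, so the count is no result about the list. *SFC1*, the mitochondrial succinate-fumarate carrier, had 0.421, 0.576 and 0.434 CPM in *pbp1Δ* and 4.87, 5.48 and 4.83 CPM in *pab1Δpbp1Δ* (3.41 ± 0.23). *PCK1*, the gluconeogenic PEP carboxykinase, had 5.16, 4.71 and 5.32 CPM and 14.6, 24.6 and 18.4 CPM (1.93 ± 0.21). The enzymes particular to the pathways did not all move: *ICL1*, isocitrate lyase, overlapped between the strains (21.3, 20.03 and 20.4 CPM against 15.3, 39.7 and 31.4 CPM), and the malate synthase gene *MLS1* (0.64, edgeR adjusted p = 0.131) and fructose bisphosphatase gene *FBP1* (0.87, edgeR adjusted p = 0.0367) were not called.

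Genes of fat breakdown rose as well. Of 42 genes for fatty acid oxidation and peroxisomes 18 rose and 2 fell (42.9% rising, median 0.45, 6 to 24 rising, quintile share 23.0%). The 5 largest rises were all in β-oxidation or acyl-carnitine transport, chosen here after their values were seen. *POX1* went from 0.389, 0.420 and 0.392 CPM to 6.25, 6.11 and 3.97 CPM, the thiolase gene *POT1* from 0.105, 0.132 and 0.0840 CPM to 0.501, 1.07 and 0.955 CPM (2.96 ± 0.41), and the carnitine acetyltransferase gene *CAT2* from 6.77, 6.21 and 6.83 CPM to 29.8, 67.0 and 44.9 CPM (2.85 ± 0.28). The carnitine carrier gene *CRC1* (3.01) and the dienoyl-CoA reductase gene *SPS19* (2.75) completed them. Peroxisome biogenesis genes moved less, *PEX11* by 0.87.

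The hexose transporter genes moved in both directions. Of 17 transporter and sensor genes 3 fell and 6 rose (median 0.63, 2 to 4 falling and 4 to 9 rising), and the 35.3% that rose were below the quintile share of 44.1%. The 3 that fell were *HXT2*, *HXT4* (86.6, 88.7 and 72.5 CPM to 29.4, 17.4 and 17.5 CPM, -1.94 ± 0.22) and *HXT3* (-0.65, 1 of 6 fits, and lost with RLE or upper-quartile scaling), which carry glucose into cells growing on it. The 6 that rose, *HXT8*, *HXT9*, *HXT10*, *HXT11*, *HXT14* and *HXT15*, were all at most 3.04 CPM in *pbp1Δ*, and of these *HXT8* was called in 2 and *HXT15* in 3 of 6 fits. *HXT10* had 0.421, 0.408 and 0.784 CPM there and 5.01, 4.06 and 2.78 CPM in the double mutant (2.89 ± 0.36). *HXT9* and *HXT11* are near-identical copies, so their counts are uncertain as to which gene they belong to.

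Glycolysis as a whole was little changed in calls, with 1 of 17 genes lower and 4 higher (median -0.29, 0 to 4 falling and 3 to 5 rising), against quintile shares of 39.5% and 4.90%. The 4 were minor or regulated isozymes. *TDH1*, a glyceraldehyde-3-phosphate dehydrogenase, rose from 11.9, 13.2 and 11.1 CPM to 59.1, 72.7 and 56.0 CPM (2.38 ± 0.14), *ENO1*, an enolase, from 429, 549.9 and 436 CPM to 1063, 949.5 and 918 CPM (1.06 ± 0.15), and the hexose kinase genes *GLK1* and *HXK1* by 0.89 and 0.74 (*HXK1* in 4 of 6 fits). In the alcohol and acetate list 5 of 18 rose and 3 fell (-0.01, 3 to 7 rising and 2 to 4 falling, quintile shares 11.6% and 14.3%). Beside *ADH2* these were led by the minor pyruvate decarboxylase gene *PDC6* (1.20, 1.61 and 1.29 CPM to 7.95, 15.5 and 10.7 CPM, 3.07 ± 0.29), and the main cytosolic acetaldehyde dehydrogenase gene *ALD6* fell (1768, 2093 and 1744 CPM to 745, 808 and 813 CPM, -1.24 ± 0.14).

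Mitochondrial functions did not move as a block. Of 75 mitochondrial ribosomal protein genes 24 rose and none fell (32.0%, median 0.46, quintile share 9.31%). Their library medians were 0.70, 0.17 and 0.33, with replicate 1 the highest, and 9 to 33 rose in the leave-one-out fits. *MRPL20* went from 31.8, 27.1 and 30.6 CPM to 85.7, 57.3 and 62.9 CPM (1.21 ± 0.16) and *MRPS16* from 22.9, 21.3 and 19.9 CPM to 61.0, 44.5 and 41.0 CPM (1.20 ± 0.16). In WT the list took 0.335 to 0.347% of the counts, in *pbp1Δ* 0.255 to 0.285% and in *pab1Δpbp1Δ* 0.388 to 0.502%, so the level from which it rose was itself below that of WT. These percents are not scaled by TMM and do not show a level above WT. In log2 CPM against the mean of *pbp1Δ*, the WT library medians were 0.422, 0.364 and 0.305. Those of the double mutant (0.704, 0.173 and 0.331) lay on both sides of them.

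The other mitochondrial lists were mixed. Of 23 respiratory chain genes 6 rose and 3 fell (median -0.04, 2 to 7 rising and 0 to 9 falling, quintile shares 4.90% and 39.5%). Cytochrome c went up, *CYC1* from 210.5, 168 and 191 CPM to 508, 347 and 459 CPM (1.21 ± 0.16) and its minor form *CYC7* from 8.82, 7.60 and 7.42 CPM to 19.5, 25.8 and 27.7 CPM (1.62 ± 0.16). The cytochrome oxidase subunit gene *COX4* went down, from 111, 93.9 and 105 CPM to 55.0, 30.7 and 35.5 CPM (-1.35 ± 0.21, called in 5 of 6 fits). Of 14 ATP synthase genes 2 fell and 1 rose (-0.33, 0 to 9 falling, quintile share 39.5%). Of 17 TCA cycle genes 2 fell and 4 rose (-0.11, 0 to 6 falling and 2 to 6 rising, quintile shares 27.3% and 9.31%). Of 34 protein import genes 5 fell and 7 rose (-0.06, 1 to 11 falling and 2 to 10 rising, quintile shares 39.5% and 4.90%). The outer membrane receptor gene *TOM70* had the largest fall among them (-0.98) and *TIM12*, for a small Tim protein of the intermembrane space, the largest rise (1.07, 2 of 6 fits).

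Stress genes rose widely. Of 49 general stress response genes, targets of Msn2 and Msn4 in other studies of yeast, 36 rose and 2 fell (73.5% rising, median 1.18, 28 to 38 rising, quintile share 23.0%). The library medians were 0.97, 1.38 and 1.23. *CTT1*, the cytosolic catalase, had 14.2, 12.2 and 14.6 CPM in *pbp1Δ* and 53.1, 86.1 and 72.8 CPM in *pab1Δpbp1Δ* (2.38 ± 0.19, edgeR adjusted p = 0.000139). *XBP1*, a transcriptional repressor of quiescence, had 5.40, 4.94 and 4.73 CPM and 37.1, 59.5 and 45.6 CPM (3.24 ± 0.19). *SOL4*, a 6-phosphogluconolactonase of the pentose phosphate pathway, had 2.84, 2.44 and 2.25 CPM and 18.8, 19.5 and 19.6 CPM (2.95 ± 0.14), and *GND2*, the enzyme after it, rose by 2.00. The double mutant was higher in every library for each of them. The 2 that fell were *GPD1*, for glycerol synthesis (-0.65, 2 of 6 fits), and *HSP78*, a mitochondrial chaperone (-0.41, 1 of 6 fits), and neither was called with upper-quartile scaling.

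The stress response element (STRE), to which Msn2 and Msn4 bind, has the core AGGGG, which reads CCCCT on the other strand. The *HSP12* promoter is shown since it belongs to the gene with the largest rise and holds 2 matches in this stretch, in capitals, both on the other strand.
HSP12, chrVI:107006-107105, plus strand, 250 to 151 bases before the start codon: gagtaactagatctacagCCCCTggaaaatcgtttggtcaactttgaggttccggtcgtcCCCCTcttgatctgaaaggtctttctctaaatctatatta
The core was found in 22.6% of the 5777 windows, in 31.4% of those of genes that rose, in 16.2% of those of genes that fell and in 79.6% of those of the general stress list. The share of genes that rose was 16.0% with no match, 23.0% with 1, 34.3% with 2 and 43.8% with 3 or more. The general stress list held 22 of the 204 windows with 2 or more STRE matches, and the shares without that list were not computed. Within the lowest quintile of WT level 28.8% of the windows of genes that rose and 22.0% of the others held it.

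**Figure D3:**
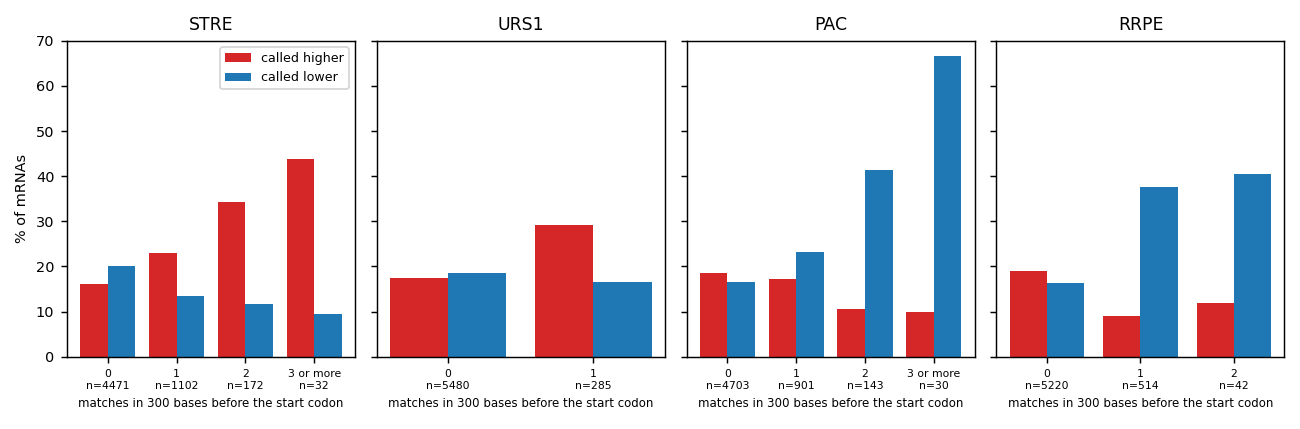
Percent of genes called higher and lower (y axis) by the number of matches to STRE, PAC, RRPE and URS1 in the 300 bases before the start codon (x axis). The share called higher goes from 16.0% to 43.8% with STRE matches, and the share called lower from 16.5% to 66.7% with PAC matches. All windows are counted, those of the ribosome assembly and general stress lists and those that also hold RRPE included.

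Of 21 stationary phase and Snz-Sno genes 14 rose and none fell (66.7%, median 1.17, 10 to 17, quintile share 44.1%), of which *SNO1*, in vitamin B6 synthesis, went from 0.158, 0.204 and 0.294 CPM to 1.36, 1.38 and 1.54 CPM (2.72 ± 0.30). Of its members that rose, *HSP12*, *HSP26*, *GRE1* and *SPI1* are also in the general stress list. Of 38 oxidative stress genes 14 rose and 3 fell (36.8% rising, median 0.39, 7 to 19 rising, quintile share 9.31%), with the sulfiredoxin gene *SRX1* at 2.45 (4 of 6 fits) and the thioredoxin reductase gene *TRR1* at -0.81 (2 of 6 fits). Of 21 trehalose and glycogen genes 9 rose and 3 fell (42.9% rising, median 0.37, 5 to 10 rising, quintile share 23.0%). The phosphatase-targeting genes *GAC1* (2.71) and *GIP2* (2.23) and the acid trehalase gene *ATH1* (1.57) led the rises, and the trehalose synthase gene *TPS1* overlapped between the strains (156, 179 and 161 CPM against 175, 165 and 158 CPM).

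Of 37 autophagy genes 8 rose and 1 fell (median 0.28, 2 to 14 rising), and the 21.6% that rose were near the quintile share of 23.0%. *ATG39*, a receptor for autophagy of the nucleus, rose from 2.61, 2.39 and 2.66 CPM to 9.71, 10.2 and 9.40 CPM (1.94 ± 0.15). Among 14 vacuolar hydrolase genes 2 rose and 4 fell (-0.09, 1 to 5 falling, quintile share 27.3%), the α-mannosidase gene *AMS1* from 15.4, 18.8 and 16.7 CPM to 46.5, 70.6 and 46.7 CPM (1.70 ± 0.19) and the aminopeptidase gene *APE1* the other way, from 44.4, 51.3 and 44.6 CPM to 20.2, 20.5 and 25.3 CPM (-1.08 ± 0.13). Both are delivered to the vacuole by the same transport route. Of 19 genes of the vacuolar proton pump 2 fell (-0.26, 0 to 12 in the leave-one-out fits, quintile share 39.5%).

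Genes of meiosis and spore formation, which haploid cells in rich medium do not use, rose from low levels. Of 59 meiosis and sporulation genes 37 rose and 2 fell (62.7% rising, median 1.58, 16 to 49 rising, quintile share 44.1%). The library medians were 0.89, 1.77 and 1.49, with replicate 1 the lowest, and the lowest leave-one-out count was without *pbp1Δ* replicate 1. Levels stayed low. The list took 0.0356 to 0.0377% of all counts in *pbp1Δ* and 0.058 to 0.105% in *pab1Δpbp1Δ*.

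The early regulators changed less than several of the genes that follow. *IME1*, the master activator of meiosis, had 15.1, 15.1 and 16.4 CPM in *pbp1Δ* and 20.01, 21.8 and 32.3 CPM in *pab1Δpbp1Δ*, without overlap but not called (0.67, edgeR adjusted p = 0.0153). *IME2*, the meiotic kinase, had 10.5, 9.64 and 11.1 CPM and 19.8, 40.7 and 41.4 CPM (1.71 ± 0.27), and *NDT80*, the activator of the middle genes, 1.14, 0.781 and 0.966 CPM and 2.57, 2.55 and 2.64 CPM (1.43 ± 0.23), each called in 4 of 6 fits. *REC8* had 1.04, 1.02 and 0.966 CPM and 6.92, 16.5 and 11.8 CPM, and *RIM4*, an RNA-binding translational repressor of meiosis, 9.81, 8.68 and 9.13 CPM and 40.8, 70.3 and 53.4 CPM (2.58 ± 0.20). *MEK1*, a kinase of meiotic recombination, had 0.274, 0.288 and 0.168 CPM and 0.972, 2.23 and 1.82 CPM (2.77 ± 0.40). In each of these rises replicate 1 of the double mutant was the lowest, apart from *NDT80*. *RME1*, a repressor of *IME1*, fell from 99.1, 94.9 and 103 CPM to 46.2, 44.8 and 54.6 CPM (-1.02 ± 0.11).

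Many early meiotic genes carry URS1, with the core GGCGGC, which reads GCCGCC on the other strand, at which Ume6 represses them during growth. The promoters of 3 of the genes that rose are shown with the core in capitals.
REC8, chrXVI:571529-571588, minus strand, 210 to 151 bases before the start codon: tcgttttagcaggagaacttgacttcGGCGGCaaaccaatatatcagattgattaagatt
SRT1, chrXIII:469597-469646, minus strand, 170 to 121 bases before the start codon: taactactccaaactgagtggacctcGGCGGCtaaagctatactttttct
RIM4, chrVIII:56349-56398, plus strand, 300 to 251 bases before the start codon: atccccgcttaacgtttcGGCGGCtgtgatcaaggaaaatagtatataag
The core was found in 5.14% of all windows, in 8.53% of those of genes that rose, in 4.51% of those of genes that fell and in 32.2% of those of the meiosis list. Of genes with 1 match 29.1% rose, against 17.4% with none. Within the lowest quintile of WT level it was present in 12.8% of windows of genes that rose and in 7.26% of the others.

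Among genes particular to a mating type, the a-specific ones that were called fell and the alpha-specific ones that were called rose. Cells of *MATa* type express a-specific genes and hold alpha-specific genes at low levels. Of 7 a-specific genes 4 fell (57.1%, median -0.83, 2 to 6 falling, quintile share 39.5%). *BAR1*, the protease that degrades α-factor, fell from 276, 295 and 255 CPM to 59.8, 100.2 and 64.8 CPM (-1.87 ± 0.20) and *STE6*, the a-factor exporter, from 455, 486 and 441 CPM to 196, 197 and 199 CPM (-1.22). *MFA1*, an a-factor gene, went from 110.0, 91.6 and 117 CPM to 17.0, 45.0 and 34.6 CPM (-1.71 ± 0.31, called in 3 of 6 fits). The α-factor receptor gene *STE2* (-0.61, edgeR adjusted p = 0.0273) and the agglutinin subunit gene *AGA2* (-0.47, edgeR adjusted p = 0.0443) were not called.

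Of 4 alpha-specific genes 3 rose (median 1.80, 2 to 3 rising, quintile share 44.1%). The other, the α-factor gene *MF(ALPHA)2*, was not called (-0.31, edgeR adjusted p = 0.554). It had 0.295, 0.192 and 0.238 CPM in *pbp1Δ* and 0.120, 0.298 and 0.164 CPM in *pab1Δpbp1Δ*. *STE3*, the a-factor receptor, had 3.32, 3.31 and 3.08 CPM in *pbp1Δ* and 13.0, 14.5 and 15.1 CPM in *pab1Δpbp1Δ* (2.14 ± 0.14), *SAG1*, the alpha-agglutinin, 59.0, 57.0 and 60.7 CPM and 94.4, 213 and 208 CPM (1.55 ± 0.28, called in 2 of 6 fits), and *MF(ALPHA)1*, the main α-factor gene, 0.410, 0.324 and 0.322 CPM and 1.20, 1.81 and 1.36 CPM (2.05 ± 0.28). The summed level of the 6 a-specific markers lay at 1870 to 1970 CPM in *pbp1Δ* and 779 to 1170 CPM in *pab1Δpbp1Δ*, and that of the 4 alpha-specific markers at 60.9 to 64.3 CPM and 109 to 230.0 CPM. The sum of the a-specific markers thus stayed above that of the alpha-specific ones in every library. Single genes did not all keep this order. *SAG1* was above *BAR1*, *MFA1* and *AGA2* (27.8, 42.3 and 34.5 CPM) in every double mutant library. Expected counts of *MATALPHA1* and of its silent copy *HMLALPHA1*, whose sequences are the same, were at most 0.31 in all 6 libraries, so the defining transcript of alpha cells was at or near 0.

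Of 30 pheromone response genes 7 rose and 5 fell (median 0.23, 1 to 13 rising and 3 to 6 falling, quintile shares 11.6% and 14.3%). *FAR1*, which arrests the cycle in G1 upon pheromone, fell from 149, 172 and 159 CPM to 34.8, 46.8 and 42.7 CPM (-1.94 ± 0.14), *GPA1*, the Gα subunit, from 91.5, 104 and 97.0 CPM to 38.6, 34.4 and 41.3 CPM (-1.35 ± 0.11), and *STE4* (-0.92), *STE12* (-0.64, 3 of 6 fits) and *FUS3* (-0.47, 2 of 6 fits) followed, the last 2 not called with upper-quartile scaling. Those that rose included *STE18*, the Gγ subunit (1.13), and *FIG1* (1.39) and *PRM2* (1.36), which act late in mating and were each called in 1 of 6 fits.

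**Figure D4:**
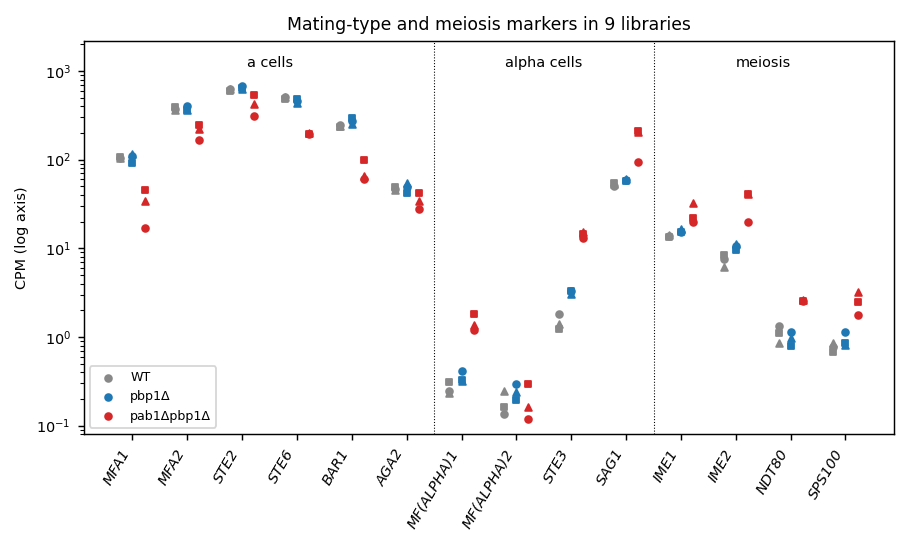
CPM in each library (log axis) of a-specific, alpha-specific and meiotic genes in WT, *pbp1Δ* and *pab1Δpbp1Δ*. *BAR1* lies at 255 to 295 CPM in *pbp1Δ* and 59.8 to 100.2 CPM in *pab1Δpbp1Δ*, and *STE3* at 3.08 to 3.32 CPM and 13.0 to 15.1 CPM.

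Of 32 genes for cyclins and cell cycle control 10 fell and 2 rose (median -0.30, 3 to 14 falling), and the 31.2% that fell were near the quintile share of 27.3%. The mitotic exit phosphatase gene *CDC14* went from 112, 111 and 113 CPM to 58.5, 54.1 and 58.1 CPM (-0.97 ± 0.09), and the mitotic cyclin genes *CLB1* (-0.80) and *CLB2* (-0.59) fell, each in 2 of 6 fits and not with upper-quartile scaling. Of 47 DNA replication genes 18 fell and 3 rose (38.3% falling, median -0.30, 6 to 21 falling, quintile share 14.3%), among them all of *MCM2* to *MCM7*, the helicase of replication, which ranged from -0.83 to -0.67. *RFA1*, the large subunit of replication protein A, went from 107, 129 and 119 CPM to 58.7, 59.2 and 69.2 CPM (-0.92 ± 0.12). *HUG1*, a gene induced by DNA damage, was at 0.94 and was called in 2 of 6 fits. Of 11 histone genes 1 fell (-0.31, 0 to 6, quintile share 39.5%).

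The cell wall list was balanced, 14 of 60 rising and 14 falling (median 0.02, 6 to 20 rising and 12 to 20 falling, quintile shares 4.90% and 39.5%). Several genes known for dissolving the septum from the daughter side after division fell, and they were picked out here after their values were seen, so they are examples and not a tested group. The chitinase gene *CTS1* went from 1141, 1195 and 1046 CPM to 295, 328 and 418 CPM (-1.69 ± 0.16), the glucanase genes *DSE4* (823, 871 and 783 CPM to 306, 245 and 293 CPM, -1.55 ± 0.13) and *SCW11* (-1.28) fell, as did *EGT2* (1344, 1353 and 1236 CPM to 509, 435 and 512 CPM, -1.43 ± 0.13), *DSE1* (-1.19) and *DSE2* (-1.10). *ASH1*, which represses *HO* in daughter cells, fell by 0.84 on the log2 scale.

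Other wall genes rose. The mannoprotein gene *CWP1* went from 151, 148 and 150.4 CPM to 366, 323 and 391 CPM (1.27 ± 0.11), and *PIR3* from 7.62, 6.45 and 6.27 CPM to 26.3, 37.3 and 38.2 CPM (2.33 ± 0.17), opposite to its paralogs *PIR1* and *HSP150* (-1.10). *GAS4*, a glucanosyltransferase of spore wall assembly, went from 0.789, 0.889 and 0.742 CPM to 4.67, 4.09 and 3.86 CPM (2.39 ± 0.21). The abundant wall protein gene *SED1* went from 5501, 5601 and 5438 CPM to 10966, 8787 and 10891 CPM (0.90 ± 0.15, called in 3 of 6 fits).

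Of 35 fatty acid and phospholipid synthesis genes 11 fell and 1 rose (median -0.26, 3 to 15 falling), and the 31.4% that fell were near the quintile share of 27.3%. *FAA4*, a long-chain acyl-CoA synthetase, went from 769, 966 and 859 CPM to 224, 261 and 292 CPM (-1.73 ± 0.15) and *OLE1*, the fatty acid desaturase, from 931, 1028 and 902 CPM to 353, 253 and 348 CPM (-1.58 ± 0.16). Of 24 sphingolipid genes 4 fell and 2 rose (-0.21, 1 to 13 falling, quintile share 27.3%), with *YPC1*, a ceramidase that can also make ceramide, rising from 18.1, 14.9 and 14.8 CPM to 99.8, 51.1 and 64.9 CPM (2.18 ± 0.24). Of 27 ergosterol genes 3 fell and 2 rose (-0.05, 0 to 8 falling, quintile share 39.5%).

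Of 25 genes for the COPI and COPII vesicle coats 12 fell and none rose (48.0%, median -0.45, 3 to 19, quintile share 39.5%). *SEC26*, a COPI subunit, went from 519, 664 and 570.3 CPM to 281, 245 and 238 CPM (-1.19 ± 0.14), and *SEC23*, a COPII subunit, from 825, 934 and 900.2 CPM to 412, 414 and 447 CPM (-1.06 ± 0.12). Of 53 genes for translocation and glycosylation 13 fell and 3 rose (24.5% falling, median -0.34, 3 to 36 falling, quintile share 27.3%), *MNN1*, a Golgi mannosyltransferase, from 261, 272 and 276 CPM to 119, 119 and 125 CPM (-1.15 ± 0.09). The number was 36 without *pab1Δpbp1Δ* replicate 1. Of 28 ER folding and unfolded protein response genes 4 fell and 1 rose (-0.17, 1 to 12 falling, quintile share 27.3%), among them *KAR2*, the Hsp70 of the ER (-0.72, 1 of 6 fits, and not with upper-quartile scaling).

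Metal and vitamin genes showed opposite movements within lists. Of 32 iron genes 6 rose and 4 fell (median 0.21, 2 to 14 rising and 2 to 10 falling, quintile shares 11.6% and 14.3%). The genes of wall mannoproteins that retain siderophore iron, *FIT1* (1.31, 2 of 6 fits), *FIT2* (10.9, 8.99 and 9.24 CPM to 24.1, 19.3 and 23.8 CPM, 1.21 ± 0.14) and *FIT3* (1.06, 1 of 6 fits), and the heme oxygenase gene *HMX1* (1.45) rose. The surface reductase gene *FRE1* fell from 274, 274 and 242 CPM to 90.9, 77.6 and 65.6 CPM (-1.75 ± 0.14), and *FRE4* (-1.54) and the iron permease gene *FTR1* (-0.93, 3 of 6 fits) fell, the last not with upper-quartile scaling. *CTR1*, the high-affinity copper transporter, fell from 291, 282 and 241 CPM to 107, 78.9 and 86.4 CPM (-1.57 ± 0.14), and of the 19 zinc and copper genes 6 fell and 2 rose (-0.13, 1 to 8 falling, quintile share 27.3%), 1 of them *COX17*, a copper chaperone of cytochrome oxidase (1.35).

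Of 29 thiamine and NAD genes 13 rose and 3 fell (44.8% rising, median 0.51, 9 to 17 rising, quintile share 11.6%). *THI5* rose from 0.873, 0.877 and 1.20 CPM to 13.0, 15.6 and 8.49 CPM (3.66 ± 0.28), and its near-identical copies *THI11*, *THI12* and *THI13* by 2.27 to 2.79. Reads of these copies can be split between them. *BNA2*, the first enzyme of NAD synthesis from tryptophan, rose from 11.9, 12.3 and 11.0 CPM to 42.3, 60.7 and 48.2 CPM (2.11 ± 0.15). The salvage gene *NPT1* (-1.09) fell, as did *QNS1* (-0.75, 1 of 6 fits) and *NMA1* (-0.47, 2 of 6 fits), the last 2 not with upper-quartile scaling.

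Of 25 phosphate starvation genes 7 fell and 1 rose (median -0.33, 3 to 15 falling), and the 28.0% that fell were near the quintile share of 27.3%. *VTC4*, the polyphosphate polymerase, went from 581, 707 and 646 CPM to 296, 193 and 175 CPM (-1.54 ± 0.21), *PHM6* fell by 1.80 on the log2 scale and was called in 5 of 6 fits, and the acid phosphatase gene *PHO3*, which thiamine represses, rose (243, 219 and 215 CPM to 381, 450.1 and 434 CPM, 0.91 ± 0.11). Of 24 ion transport genes 4 fell and 3 rose (-0.30, 1 to 8 falling, quintile share 14.3%). The plasma membrane proton pump gene *PMA1*, among the most abundant mRNAs, went from 10282, 10023 and 8974 CPM to 6596, 3961 and 4758 CPM (-0.93 ± 0.20), a fall that was called in 1 of 6 leave-one-out fits and was lost with upper-quartile scaling.

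Signalling genes moved in both directions. Of 55 genes for glucose, PKA, TORC1 and Snf1 signalling 8 rose and 8 fell (median -0.04, 2 to 15 rising and 3 to 14 falling, quintile shares 9.31% and 27.3%). *RAS1*, one of a pair of Ras GTPases that activate adenylate cyclase, fell from 62.5, 63.9 and 65.2 CPM to 23.9, 22.1 and 24.9 CPM (-1.43 ± 0.10), and *RAS2* by 0.73 on the log2 scale (1 of 6 fits). *PDE1*, which degrades cAMP, rose from 60.8, 55.5 and 60.3 CPM to 115, 188 and 147 CPM (1.36 ± 0.17), and *YAK1*, a kinase that restrains growth, from 82.7, 88.9 and 87.7 CPM to 137, 219 and 234 CPM (1.19 ± 0.19, 5 of 6 fits). *NRG1*, a repressor of glucose-repressed genes, was higher too (1.62, called in 5 of 6 fits), and *PDE2*, the other cAMP phosphodiesterase, was lower (-0.66, 3 of 6 fits). Neither *RAS2* nor *PDE2* was called with upper-quartile scaling.

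Genes near chromosome ends rose more often than others. Distances were taken for the 5777 tested entries with a coding sequence in RefSeq. Within 10 kb of an end 45.5% of 77 tested entries rose and 0% fell, and from 10 to 20 kb 42.5% of 113 rose. The share declined to 31.9%, 22.8%, 18.7% and 16.1% at 20 to 30, 30 to 50, 50 to 100 and over 100 kb. Of 27 seripauperin and COS genes, subtelomeric families of small wall and membrane proteins, 15 rose and none fell (55.6%, median 1.08, 7 to 19 rising, quintile share 44.1%). This was near the 51.9% of entries with a RefSeq gene in that quintile. *PAU2* had 0.126, 0.0841 and 0.154 CPM in *pbp1Δ* and 1.29, 1.65 and 1.26 CPM in *pab1Δpbp1Δ*. Members of these families are near copies, and *PAU1* and *PAU14*, as well as *PAU21* and *PAU22*, have the same counts in every library. *PAU1* and *PAU14* were called in 4 of 6 fits.

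Within the lowest quintile of WT level the share did not decline with distance, with 47.2%, 57.4%, 53.8%, 50.9%, 54.1% and 51.2% higher from the nearest to the farthest bin. Without the seripauperin and COS list the share in that quintile was 51.5% both within and beyond 20 kb. Entries for which RefSeq has no gene rose less often than the others at that level, 26.2% against 51.9%. By chromosome, the median log2 fold change was 0.31 on chromosome I, from 0.22 to 0.33 in the 3 double mutant libraries over 90 entries, and between -0.10 and 0.14 on the others.

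**Figure D5:**
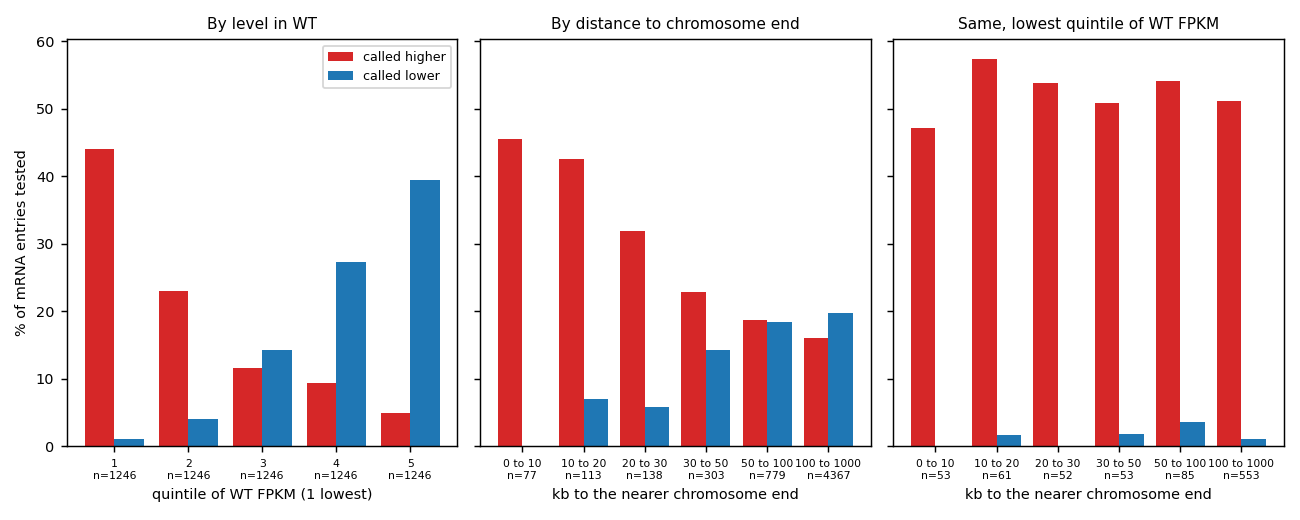
Percent of tested mRNA entries called higher and lower (y axis) by quintile of WT FPKM and by distance to the nearer chromosome end in kb, the latter also within the lowest quintile. The share called higher goes from 44.1% in the lowest to 4.90% in the highest quintile, and from 45.5% within 10 kb to 16.1% beyond 100 kb.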

How the data were processed

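RNA-Seq libraries of yeast strains, 3 per strain, were analysed. The authors sequenced stranded mRNA libraries made after rRNA depletion as single-end reads and quantified them with RSEM 1.3.0 and Bowtie 1.0.0 against transcripts of build R64 (versions per the labels). The deposited expected counts are not normalized. The deposited FPKM values, scaled by the authors to transcript length and aligned reads, were used only to sort genes by their level in WT. Expected counts were rounded, entries were filtered (filterByExpr, minimum count 10) and tested with edgeR 4.0.16 (TMM, robust quasi-likelihood test) on the 6 libraries in R 4.3.3. Adjustment covered all 6573 entries tested, 0.01 was the threshold, and the biological coefficient of variation was 17.0%. Figures were drawn in Python 3.11.15 with matplotlib 3.10.9.

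The members and lists of genes were chosen with earlier results of these data known. Named genes are *PAB1* and *PBP1*, the 20 largest rises and falls among called entries with a symbol, at least 50 normalized counts on average and no overlap between strains, key genes of each list and, per list, the 2 called members with the largest and the 2 with the smallest change. Other members of the lists were named after their values were seen. Promoter windows were read from the RefSeq R64 genome. The script for the fits was tested on simulated data.

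Alternatives were RLE and upper-quartile scaling, DESeq2 1.42.0, all 9 libraries in the fit, other count filters, counts joined by locus, a block for the replicate number, other thresholds and leaving out each library. Of the tested mRNA entries 24 hold the counts of another entry. Whether the isolates were also grown as separate cultures is not given in the sources used here, so p-values measure the spread between these samples.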

Additional observations from a re-analysis of the deposited data

How the results depend on the processing

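The 2232 calls (1158 higher, 1074 lower) became 847 to 3762 when each library was left out in turn (429 to 1965 higher, 418 to 1797 lower). At an adjusted p of 0.05 they were 3459 (1833 higher, 1626 lower). At the threshold of 0.01 with a change of 1 or more on the log2 scale also required they were 935 (701 higher, 234 lower). Upper-quartile scaling gave 2282 calls but moved the median of all mRNA entries by 0.183, to 0.214, and with it 1631 were higher and 651 lower, so that 71.5% of calls were higher in place of 51.9%. Of the original calls 1809 were among them. DESeq2 called 3008 and edgeR on all 9 libraries 3032. RLE scaling, the other count filters and the table per locus gave 2145 to 2319 calls. With a block for the replicate number 2095 entries were called, 1954 of them shared. Deviations of same-numbered libraries correlated at 0.0979, -0.0793 and 0.026, and those of other pairs at -0.166 to 0.182. Deviations from the mean of so few libraries depend on each other, so these values do not settle whether same-numbered samples were prepared together. Of the 57 lists 43 kept the sign of their median in every setting, and 13 of the other 14 changed it with upper-quartile scaling. Of the 188 named genes with values, 45 that were called with all 6 libraries lost the call in at least 1 leave-one-out fit. Genes that were not called to begin with are not among the 45. The value of *TPS1*, which was not called, lay between -0.035 and 0.073 over the leave-one-out fits.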
